A study of Rattus norvegicus with 15 samples.

Results

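The genes described here are 9 enzymes of hepatic glycolysis, Gpi, Pfkl, Pfkfb1, Tpi1, Gapdh, Pgk1, Pgam1, Eno1 and Ldha. They were found by their symbols, letter case ignored, among the 26403 genes of a liver RNA-seq table, and where a symbol stood on more than 1 entry the entry with the highest mean was used. All 9 were found. Of these, 7 had values above 0 and were tested, and Pfkfb1 and Pgk1 were listed at 0 in every library.

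The livers came from Wistar rats and were collected 24 hours into refeeding, as weight regain began, following a period of weight loss and its maintenance. The exercised group (5 libraries) had done treadmill exercise during that period and was then fed ad libitum. The gap-matched group (5 libraries) was sedentary and then received the diet that the labels call energy gap-matched, without defining it. The sedentary group (5 libraries) was sedentary and then fed ad libitum. All 3 groups were relapsing rats, with no weight-stable group among them, and the sources used here give no age or sex. Whether each numbered library stands for its own animal is not stated, so p-values here refer to the spread between libraries, which may be technical.

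Glycolysis turns glucose 6-phosphate into pyruvate in the cytosol, and lactate dehydrogenase exchanges pyruvate with lactate. In the liver most of these enzymes work in either direction, serving glucose breakdown after a meal and glucose synthesis in fasting, whereas phosphofructokinase and pyruvate kinase work only in the direction of breakdown. In fed liver, pyruvate from this route also supplies carbon for fatty acid synthesis, and the factors SREBP-1c and ChREBP raise transcription of several of its enzymes in response to insulin and carbohydrate.

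The promoters below are shown for Ldha and for the 3 enzymes that passed the test in gap-matched livers, Gpi, Gapdh and Eno1. Ldha had the highest level of the 7 transcripts with values above 0 and did not pass in any comparison. Each runs 5′ to 3′ in the direction of the gene, from 250 bases before to 50 bases after the start that RefSeq lists on build GRCr8. Capitals mark 4 short motifs searched on both strands. The first was CACGTG, the palindromic E-box. The second was ACGTG, the core of the hypoxia response element, which the E-box also contains. The third was GGGCGG, the GC box, and the fourth was TATAAA, the TATA box. A motif on the opposite strand appears as its reverse complement. Gpi lies at chr1:95993212-95993511 on the minus strand, Gapdh at chr4:159652418-159652717 on the minus strand, the downstream of 2 listed starts of Eno1 at chr5:166003111-166003410 on the plus strand, and Ldha at chr1:106507842-106508141 on the plus strand.
Gpi: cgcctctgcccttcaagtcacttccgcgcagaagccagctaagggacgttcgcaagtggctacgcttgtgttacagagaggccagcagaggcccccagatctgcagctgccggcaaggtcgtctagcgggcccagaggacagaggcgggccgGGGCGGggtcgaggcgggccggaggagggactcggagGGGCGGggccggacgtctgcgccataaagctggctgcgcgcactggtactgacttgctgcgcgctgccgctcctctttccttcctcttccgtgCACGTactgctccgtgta
Gapdh: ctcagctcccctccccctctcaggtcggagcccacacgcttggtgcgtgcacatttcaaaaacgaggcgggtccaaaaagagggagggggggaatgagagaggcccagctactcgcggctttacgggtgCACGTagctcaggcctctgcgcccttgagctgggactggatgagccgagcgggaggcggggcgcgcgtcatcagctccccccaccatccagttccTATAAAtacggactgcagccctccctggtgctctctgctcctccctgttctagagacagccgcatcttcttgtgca
Eno1: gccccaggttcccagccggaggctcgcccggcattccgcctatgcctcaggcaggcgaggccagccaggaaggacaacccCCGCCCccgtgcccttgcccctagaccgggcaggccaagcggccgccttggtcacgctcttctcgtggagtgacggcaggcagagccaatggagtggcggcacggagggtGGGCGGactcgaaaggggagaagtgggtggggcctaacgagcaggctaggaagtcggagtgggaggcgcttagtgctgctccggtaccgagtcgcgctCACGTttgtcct
Ldha: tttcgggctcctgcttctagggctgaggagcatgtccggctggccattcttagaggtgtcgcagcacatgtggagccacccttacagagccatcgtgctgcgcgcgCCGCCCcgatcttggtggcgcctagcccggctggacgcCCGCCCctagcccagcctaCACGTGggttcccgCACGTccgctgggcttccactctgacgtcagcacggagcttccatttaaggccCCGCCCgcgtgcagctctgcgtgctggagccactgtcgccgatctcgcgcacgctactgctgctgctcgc

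Of the 4 sequences, only that of Ldha held CACGTG, with its first base 87 bases before the start. The Ldha window held a further ACGTG at −73 and GGGCGG at −144, −106 and −20, all counted in bases from the start. The Gpi window held ACGTG at 33 and GGGCGG at −98 and −61. The Gapdh window held ACGTG at −121 and the only TATAAA of the 4, at −26. The Eno1 window held ACGTG at 39 and GGGCGG at −170 and −60. It is shown because the window of the other listed start held none of the 4 motifs, with a share of G and C of 57.3%. CACGTG occurred in 6.42% of the 33469 rat promoters of the same length, ACGTG in 19.3%, GGGCGG in 33.1% and TATAAA in 14.2%. The share of G and C was 66.7% in Gpi, 62.3% in Gapdh, 68.3% in Eno1 and 66.7% in Ldha, against a median of 51.7% over all promoters. Promoters were listed for 8 of the 9 genes. A match describes these letters and was not tested as a site of binding.

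Values are FPKM, fragments scaled by transcript length and by the library's mapped fragments, so levels can be set beside each other between genes. Relative depth of the libraries, estimated indirectly from ratios of low FPKM values between libraries, ran from 0.678 to 1. Absolute depth is unknown, and between 11008 and 11365 genes reached 1 FPKM. Correlations of log2 values lay between 0.967 and 0.984 within groups and between 0.962 and 0.982 between groups. All 9 hepatocyte markers measured were above 1 FPKM, led by transthyretin (Ttr) at 14450 FPKM, and 0 of 6 skeletal muscle markers reached 1 FPKM. A lower transcript level in whole liver cannot be told apart from fewer cells of the type that makes it.

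Pfkfb1, the liver enzyme that makes and removes the fructose bisphosphate activator of phosphofructokinase (ENSRNOG00000000165), and Pgk1, phosphoglycerate kinase (ENSRNOG00000002467), were listed at 0 FPKM in all 15 libraries. Both genes lie on the X chromosome. Of the 619 genes of the table that RefSeq places on that chromosome, 552 (89.2%) were listed at 0 in every library, against 2341 of 15501 autosomal genes (15.1%). The X-linked genes listed at 0 included some that every cell uses, such as Hprt1, Uba1 and Pdha1. Others on the same chromosome had values, among them Rpl10 with a mean of 689 FPKM and Nsdhl with a mean of 335 FPKM. The 0 of Pfkfb1 and Pgk1 is therefore reported as listed, with no statement on their expression.

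Among the 7 enzymes with values, Ldha had the highest level, with a mean of 598 FPKM over the 15 libraries, above 98.3% of tested genes. Eno1 followed at 193 FPKM, Gpi at 180.5, Gapdh at 126, Pgam1 at 125, Tpi1 at 121 and Pfkl at 26.2 FPKM. Ldha exceeded Eno1, Gpi exceeded Gapdh and Tpi1 exceeded Pfkl in 15 of 15 libraries. Eno1 exceeded Gpi in 12 of 15. Gapdh exceeded Pgam1 in 6 of 15 and Pgam1 exceeded Tpi1 in 7 of 15, so the order of these 3 was not settled beyond their spread. In gap-matched livers Tpi1 exceeded Pgam1 in each of the 5 libraries, and in exercised livers Pgam1 exceeded Gapdh in each of the 5. These orders use only the higher entry of Tpi1 and of Gapdh. Their second entries, averaging 52.7 and 33.8 FPKM, are left out, so the places of Tpi1 and Gapdh also depend on that choice.

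**Figure D1:**
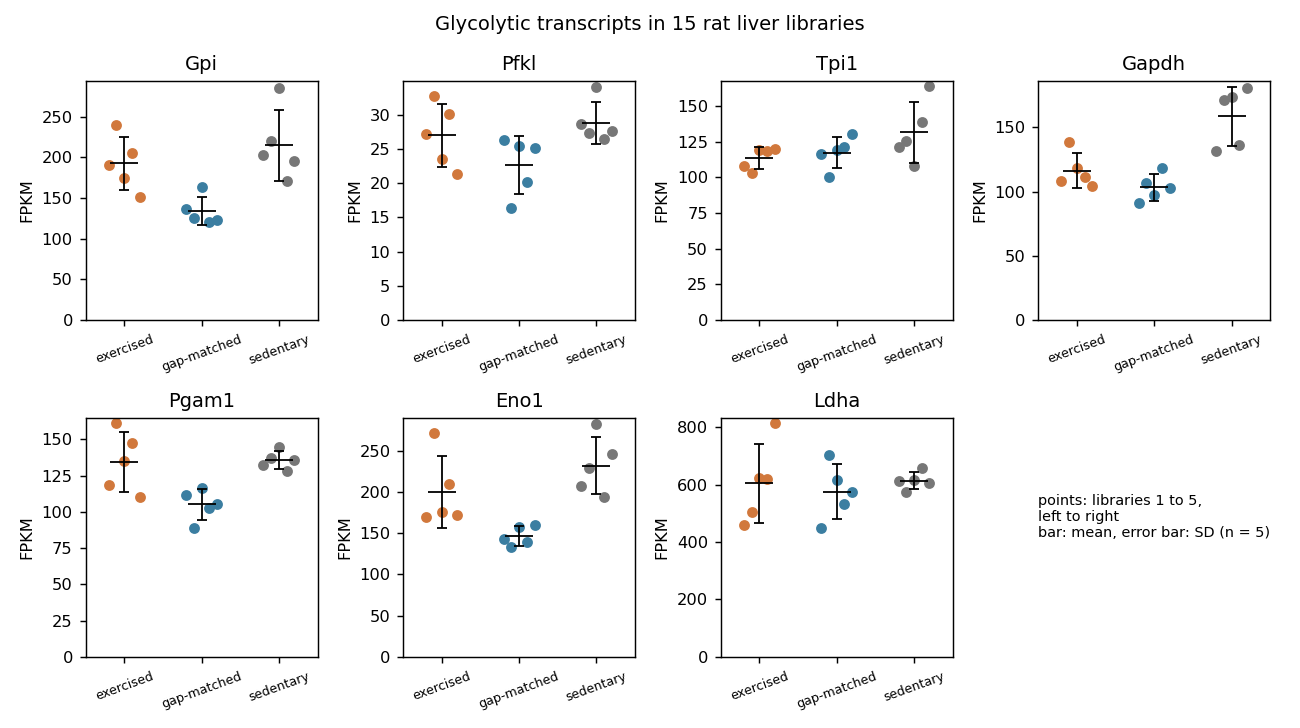
FPKM of the 7 enzymes with values (vertical axes, linear and starting at 0) in exercised, gap-matched and sedentary livers. Points are libraries, the bar is the group mean and the error bar the SD (n = 5). The 5 gap-matched points of Gpi, Gapdh and Eno1 all lie below the 5 sedentary points, whereas the groups of Ldha and Tpi1 overlap.

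Gpi, glucose-6-phosphate isomerase (ENSRNOG00000023150), interconverts glucose 6-phosphate and fructose 6-phosphate. Gpi had 191, 239, 175, 206 and 151 FPKM in exercised livers, 137, 126, 163, 120.1 and 124 FPKM in gap-matched livers, and 203, 221, 285, 170.4 and 195 FPKM in sedentary livers. The gap-matched libraries were all below the sedentary ones, and the exercised libraries overlapped with both other groups. Gpi fell in gap-matched livers, by 0.67 ± 0.14 (SE) on the log2(FPKM + 1) scale relative to sedentary livers, with a limma adjusted p = 0.0192. The 95% interval of that difference ran from −0.97 to −0.37. Without the second sedentary library the difference was −0.65 and the limma adjusted p was 0.0546.

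Pfkl, the liver subunit of phosphofructokinase (ENSRNOG00000001214), catalyses the committed step. Pfkl had 27.2, 32.7, 23.6, 30.2 and 21.4 FPKM in exercised livers, 26.4, 16.4, 25.4, 20.2 and 25.2 FPKM in gap-matched livers, and 28.6, 27.3, 34.1, 26.4 and 27.6 FPKM in sedentary livers. The highest gap-matched library, at 26.36 FPKM, lay just under the lowest sedentary one, at 26.41 FPKM. The difference between gap-matched and sedentary livers was −0.34 ± 0.14 on the log2 scale and did not pass, with a limma adjusted p = 0.194.

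Tpi1, triosephosphate isomerase, interconverts the triose phosphates that aldolase makes. The symbol stood on 2 entries, which may share reads. The one used (ENSRNOG00000050669, written TPI1) averaged 121 FPKM, against 52.7 FPKM for the other (ENSRNOG00000015290). TPI1 had 108, 103, 119, 118 and 120.2 FPKM in exercised livers, 116, 100.3, 119, 121 and 131 FPKM in gap-matched livers, and 121, 126, 108, 139 and 164 FPKM in sedentary livers. All 3 groups overlapped. The differences were −0.20 ± 0.11 between exercised and sedentary livers and −0.16 ± 0.11 between gap-matched and sedentary livers, with limma adjusted p = 0.302 and 0.468. The second entry, and the sum of both, did not pass in any comparison either.

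Gapdh, glyceraldehyde phosphate dehydrogenase, makes the first NADH of the route and is often used as a reference gene. The entry used (ENSRNOG00000018630) had 108, 139, 119, 111 and 104 FPKM in exercised livers, 90.7, 106, 97.2, 118 and 103 FPKM in gap-matched livers, and 131, 171, 173, 136 and 181 FPKM in sedentary livers. All 5 gap-matched libraries and 4 of the 5 exercised ones were below the lowest sedentary library. Gapdh fell in gap-matched livers by 0.61 ± 0.11 on the log2 scale relative to sedentary livers, with a limma adjusted p = 0.0110 and a 95% interval from −0.84 to −0.37. It also fell in exercised livers, by 0.44 ± 0.11 relative to sedentary livers, with a limma adjusted p = 0.0303 and a 95% interval from −0.67 to −0.20. That call ended in 7 of 10 fits without 1 library, with equal sums and with only the 2 groups fitted. Between exercised and gap-matched livers the difference was 0.17 ± 0.11, with a limma adjusted p = 0.471.

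A second entry of the same name (ENSRNOG00000030963, written GAPDH), which may share reads with the first, averaged 34.1 ± 5.82 FPKM in exercised, 26.1 ± 1.61 in gap-matched and 41.3 ± 8.05 in sedentary livers (SD, n = 5 each). It was also lower in gap-matched than in sedentary livers, by −0.62 on the log2 scale (limma adjusted p = 0.0144). Between exercised and sedentary livers it differed by −0.26 and did not pass (limma adjusted p = 0.243), whereas the sum of both entries differed by −0.40 and passed (limma adjusted p = 0.0453).

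Pgam1, phosphoglycerate mutase (ENSRNOG00000050585), moves the phosphate of phosphoglycerate ahead of enolase. Pgam1 had 119, 161, 135, 147 and 110.4 FPKM in exercised livers, 112, 89.2, 117, 103 and 105 FPKM in gap-matched livers, and 133, 137, 145, 128 and 136 FPKM in sedentary livers. The gap-matched libraries were all below the sedentary ones, and the exercised libraries reached both lower and higher than the sedentary range. The difference between gap-matched and sedentary livers was −0.37 ± 0.10 on the log2 scale and did not pass with the 3 groups fitted together, with a limma adjusted p = 0.0653. With only these 2 groups in the fit, the limma adjusted p was 0.0440.

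Eno1, the enolase that forms phosphoenolpyruvate (ENSRNOG00000017895), had 170.0, 271, 175, 209.6 and 172 FPKM in exercised livers, 142, 133, 158, 139 and 159 FPKM in gap-matched livers, and 207, 229, 282, 194 and 246 FPKM in sedentary livers. All 5 gap-matched libraries were below every library of the other groups. Eno1 fell in gap-matched livers by 0.65 ± 0.13 on the log2 scale relative to sedentary livers, with a limma adjusted p = 0.0149 and a 95% interval from −0.93 to −0.37. The difference between exercised and sedentary livers was −0.22 ± 0.13 and did not pass, with a limma adjusted p = 0.355.

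Ldha, the main lactate dehydrogenase subunit of liver (ENSRNOG00000013009), had 460.1, 506, 623, 619 and 814 FPKM in exercised livers, 450.0, 705, 615, 531 and 576 FPKM in gap-matched livers, and 611, 575, 616, 657 and 605 FPKM in sedentary livers. The exercised and gap-matched libraries spread to both sides of the sedentary ones, with an SD of 137 FPKM in exercised, 94.7 FPKM in gap-matched and 29.5 FPKM in sedentary livers. The differences were −0.05 ± 0.14 between exercised and sedentary livers and −0.11 ± 0.14 between gap-matched and sedentary livers, with 95% intervals from −0.35 to 0.26 and from −0.41 to 0.20. Neither passed, with limma adjusted p = 0.898 and 0.746.

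Set side by side, gap-matched livers had lower Gapdh, Gpi and Eno1 transcripts than sedentary livers refed ad libitum, at 0.630 to 0.656 of the sedentary level. This comparison asks how the refeeding diet relates to the transcripts in rats that had not exercised. Of the 7 enzymes tested, 3 fell and 0 rose. Of all 11216 tested genes, 2.23% fell, 0.82% rose and 3.05% passed in either direction. The 7 log2 differences were all below 0, with a median of −0.37, against a median of −0.034 over all genes, of which 57.2% were below 0. In 5 of the 7, Gpi, Pfkl, Gapdh, Pgam1 and Eno1, all gap-matched libraries lay below all sedentary ones, as did 4.56% of all genes. The 7 enzymes were chosen with earlier results of these data known. Counts set beside all genes, here and below, are therefore descriptions and not tests of the pathway. Lower genes made up 73.1% of all calls in this comparison, against 83.9% with equal sums, 58.9% with median-of-ratios scaling and 59.7% with quantile scaling. Gpi, Gapdh and Eno1 passed under each of those scalings. The summed level of 7 erythroid markers, led by Hba1 with Alas2 listed at 0, ran from 1528 to 2301 FPKM in gap-matched and from 791 to 1708 FPKM in sedentary livers. The summed level of 4 adipocyte markers, of which Cfd alone reached 1 FPKM and none was at 0, ran from 18.1 to 25.5 FPKM in gap-matched and from 13.7 to 19.9 FPKM in sedentary livers. The part of either in these differences was not tested.

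Exercised livers, both groups being refed ad libitum, had lower Gapdh than sedentary livers, at 0.738 of the sedentary level, and no other of the 7 enzymes passed. This comparison asks how exercise during weight loss relates to the transcripts in early regain. Of the 7, 1 fell and 0 rose, and of all tested genes 3.26% fell, 2.51% rose and 5.78% passed in either direction. All 7 differences were below 0, as were those of 48.7% of genes, with a median of −0.15 for the 7 and of 0.008 for all genes. The groups overlapped for all 7 enzymes, whereas for 3.66% of genes all exercised libraries lay below all sedentary ones. Leaving out 1 library ended the Gapdh call in 7 of 10 fits, those without sedentary libraries 2, 3 or 5 or exercised libraries 1, 3, 4 or 5, with log2 differences from −0.39 to −0.45 and limma adjusted p-values from 0.0507 to 0.0826 in those fits. It was also lost after scaling to the same sum (limma adjusted p = 0.0535) and with only these 2 groups fitted (limma adjusted p = 0.0609). The adipocyte sum ran from 19.9 to 27.7 FPKM in exercised and from 13.7 to 19.9 FPKM in sedentary livers. The sum of 9 Kupffer cell markers, led by C1qa with Vsig4 listed at 0, ran from 488 to 692 FPKM in exercised livers. It ran from 337 to 570 FPKM in sedentary livers, and from 461 to 684 FPKM in gap-matched livers, so its range there was similar to the exercised one. The part of either in the Gapdh difference was not tested.

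Between exercised and gap-matched livers, 0 of the 7 enzymes passed in limma, while 3, Gpi, Pgam1 and Eno1, had an unadjusted p under 0.05. Of all tested genes 0.687% were higher and 0.214% lower in exercised livers, 0.9% in either direction, and 16.5% had an unadjusted p under 0.05. Tpi1 was the only one of the 7 with a difference below 0, against 42.2% of genes, and the median of the 7 was 0.24, against 0.039 for all genes. With libraries scaled to the same sum the Tpi1 difference was 0.004. The differences were 0.51 ± 0.14 for Gpi, 0.34 ± 0.10 for Pgam1 and 0.43 ± 0.13 for Eno1 on the log2 scale, with limma adjusted p = 0.0960, 0.128 and 0.135. The lowest exercised library of Eno1, at 170.0 FPKM, lay above the highest gap-matched one, at 159 FPKM, a separation in this direction that 2.27% of all genes showed. Lower genes made up 23.8% of all calls here, against 17.6% with equal sums, 40.7% with median-of-ratios scaling and 36.6% with quantile scaling. The 95% interval of the Gpi difference ran from 0.21 to 0.81, while those of Tpi1 (−0.27 to 0.18) and Ldha (−0.24 to 0.36) held 0. The 3 comparisons share their groups in pairs, so their values are not independent of each other.

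**Figure D2:**
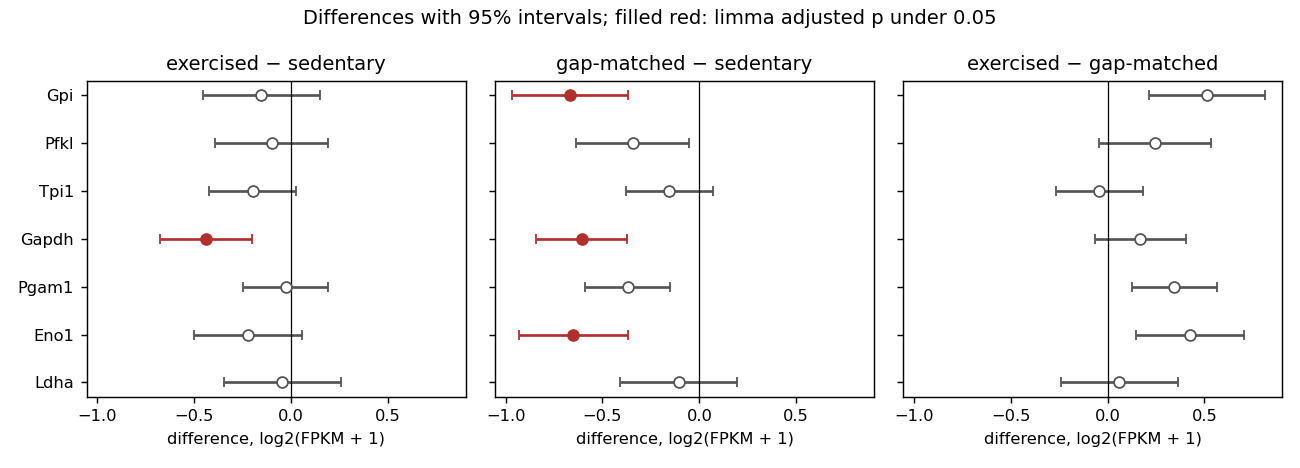
Differences on the log2(FPKM + 1) scale (horizontal axes) with 95% intervals for each of the 7 enzymes, in exercised minus sedentary, gap-matched minus sedentary and exercised minus gap-matched livers (n = 5 each). Filled red points passed at a limma adjusted p under 0.05, which are Gapdh in the first panel and Gpi, Gapdh and Eno1 in the second.

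The remaining genes of the pathway were read from a list of 43 genes in the table, of which 31 were tested. This list too was chosen with earlier results of these data known. In gap-matched against sedentary livers 2 of the 31 rose and 6 fell, where 0.82% of all tested genes rose and 2.23% fell. In exercised against sedentary livers 2 rose and 4 fell, where 2.51% of all tested genes rose and 3.26% fell. The median log2 difference of the 31 was −0.070 in the gap-matched comparison, against −0.034 for all genes. It was 0.042 in the exercised comparison, against 0.008 for all genes. Leaving out sedentary library 1, 2, 3 or 5 or gap-matched library 1, 2, 4 or 5 reduced the 8 calls in gap-matched livers to between 3 and 5. The 6 calls in exercised livers were 3 without sedentary library 2 and 2 without exercised library 1. Pklr, the liver pyruvate kinase that ends the route, fell in both. It averaged 674 ± 181 FPKM in exercised, 557 ± 141 in gap-matched and 1120.0 ± 138 in sedentary livers (SD, n = 5 each). Its log2 differences from sedentary livers were −0.77 ± 0.19 in exercised and −1.04 ± 0.19 in gap-matched livers, with limma adjusted p = 0.0298 and 0.0112.

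Aldoa, an aldolase that is widespread outside the liver and splits the hexose between phosphofructokinase and Tpi1, averaged 67.2 ± 7.70 FPKM in exercised, 42.6 ± 3.33 in gap-matched and 56.1 ± 4.51 in sedentary livers. It was the only gene of the list to pass between exercised and gap-matched livers, 0.64 ± 0.09 higher in exercised livers on the log2 scale (limma adjusted p = 0.00394), with no overlap between these groups. Aldoa also fell in gap-matched against sedentary livers by 0.39 ± 0.09 (limma adjusted p = 0.0305).

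Upstream of Gpi, Gckr, a regulator of hepatic glucose phosphorylation, fell in exercised against sedentary livers, by 0.64 ± 0.13 on the log2 scale (limma adjusted p = 0.0120). In gap-matched against sedentary livers its difference was −0.07 ± 0.13. Pfkfb2, a relative of Pfkfb1, rose in gap-matched against sedentary livers by 0.44 ± 0.11 on the log2 scale (limma adjusted p = 0.0414), at a level of 6.04 ± 0.57 against 4.18 ± 0.42 FPKM.

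Beside Ldha, both monocarboxylate transporters tested, which carry lactate and pyruvate across membranes, changed in gap-matched against sedentary livers. Slc16a1 fell by 0.41 ± 0.09 on the log2 scale (limma adjusted p = 0.0264), and Slc16a7 rose by 0.44 ± 0.09 (limma adjusted p = 0.0155). Slc16a7 also rose in exercised against sedentary livers, by 0.32 ± 0.09 (limma adjusted p = 0.0459). Pck1, which makes phosphoenolpyruvate from oxaloacetate on the route back to glucose, rose in exercised against sedentary livers by 1.86 ± 0.42 (limma adjusted p = 0.0182). Pck1 averaged 1013 ± 459 FPKM in exercised, 563 ± 271 in gap-matched and 282 ± 151 in sedentary livers, and all 3 groups overlapped. The difference between gap-matched and sedentary livers was 1.04 ± 0.42 and that between exercised and gap-matched livers 0.82 ± 0.42, and neither passed (limma adjusted p = 0.207 and 0.351).

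Among the factors, Mlxipl, which encodes ChREBP, fell in gap-matched against sedentary livers by 0.63 ± 0.13 on the log2 scale (limma adjusted p = 0.0144). Its difference between exercised and sedentary livers was −0.34 ± 0.13 (limma adjusted p = 0.134). Mlx, the partner of ChREBP, fell in both, by 0.38 ± 0.08 in exercised and by 0.33 ± 0.08 in gap-matched livers relative to sedentary livers (limma adjusted p = 0.00926 and 0.0266). Srebf1, which encodes SREBP-1, fell by 0.68 ± 0.16 in exercised and by 0.67 ± 0.16 in gap-matched livers relative to sedentary livers (limma adjusted p = 0.0197 and 0.0305).

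**Figure D3:**
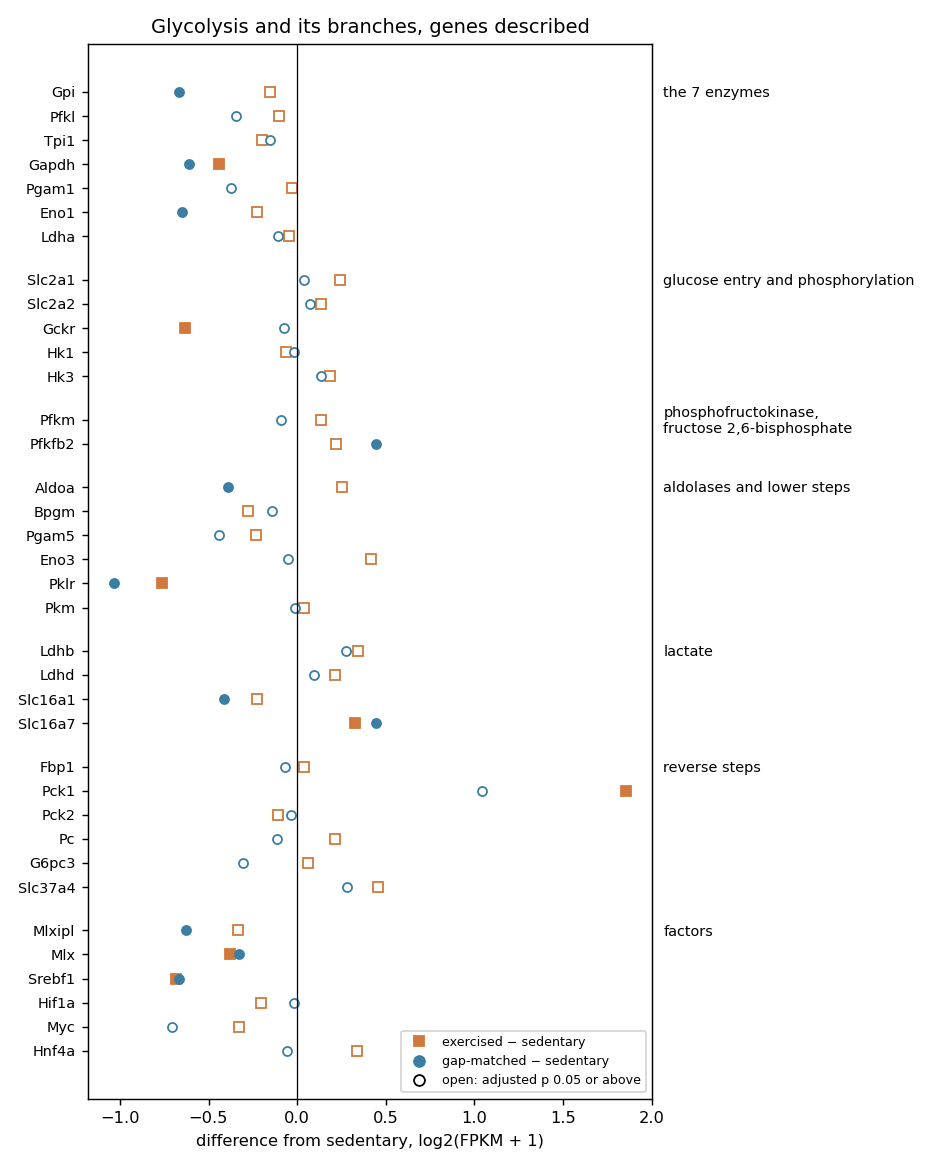
Differences from sedentary livers on the log2(FPKM + 1) scale (horizontal axis) for the 7 enzymes and 29 further genes of glycolysis and its branches, as squares for exercised and circles for gap-matched livers. Filled symbols passed at a limma adjusted p under 0.05. Pklr is low in both, and Pck1 lies farthest right in both, at 1.86 in exercised livers (filled) and 1.04 in gap-matched livers (open).

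At the steps of Pfkl, Pgam1, Eno1 and Ldha, the form measured here made up most of the summed isoenzyme FPKM. Ldha made up 99.4 ± 0.12% of the summed Ldha, Ldhb and Ldhc FPKM in exercised, 99.4 ± 0.25% in gap-matched and 99.5 ± 0.20% in sedentary livers (SD, n = 5 each). Eno1 made up 98.8 ± 0.28% of the enolases in exercised, 99.1 ± 0.25% in gap-matched and 99.4 ± 0.23% in sedentary livers. Pgam1 made up between 99.8% and 100% of the summed Pgam1 and Pgam2 FPKM in every library. Pfkl made up 91.5 ± 1.81% of the phosphofructokinases in exercised, 91.8 ± 1.70% in gap-matched and 94.0 ± 1.59% in sedentary livers, the rest being Pfkm with a mean of 1.28 FPKM and Pfkp with a mean of 0.829 FPKM. None of the 12 differences in share passed a two-sided exact permutation test over libraries after adjustment, the lowest adjusted p being 0.190. The smallest unadjusted p that 5 against 5 libraries allow is 0.00794. Adjusted over the 12 differences, a lone share at that value would not have passed, so the test could not call a single share. The lowest unadjusted permutation p was 0.0238, for Eno1 between exercised and sedentary livers.

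Within groups, 4 of the enzymes varied together from library to library. The deviations of Gpi, Pfkl, Pgam1 and Eno1 from their group means were positively related in all 6 of their pairs, over 15 libraries. Pearson's r was 0.73 for Gpi with Pfkl, 0.74 for Gpi with Pgam1, 0.79 for Gpi with Eno1, 0.83 for Pfkl with Pgam1, 0.71 for Pfkl with Eno1 and 0.79 for Pgam1 with Eno1. The permutation p-values of these r, adjusted over the 21 pairs of tested enzymes, lay between 0.00378 and 0.00658. Spearman's rho lay between 0.68 and 0.81, and its adjusted permutation p was under 0.05 for 5 of the 6 and 0.0511 for Gpi with Eno1. With the 2 libraries farthest from the median of the first-named enzyme of each pair left out, r lay between 0.59 and 0.74. Those libraries could differ between pairs. How often pairs of other genes reach such an r was not computed. The closest named gene to each of the 4 enzymes was none of the enzymes, at r between 0.91 and 0.95.

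The other 3 enzymes, Tpi1, Gapdh and Ldha, were in none of the pairs that passed. The nearest was Gapdh with Eno1, at r = 0.63 and rho = 0.60, with adjusted permutation p = 0.0732 and 0.0802. Tpi1 and Gpi had a negative r of −0.55 and a rho of −0.66, with adjusted permutation p = 0.146 and 0.0530. Without the 2 libraries farthest from the median of Gpi, this r was −0.26. Ldha and Pfkl had an r of −0.61 and a rho of −0.47, with adjusted permutation p = 0.133 and 0.319. Their r was −0.25 without the 2 libraries farthest from the median of Pfkl. Values of 1 library share its tissue piece, preparation and depth, and the part of these in the pairs was not tested.

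**Figure D4:**
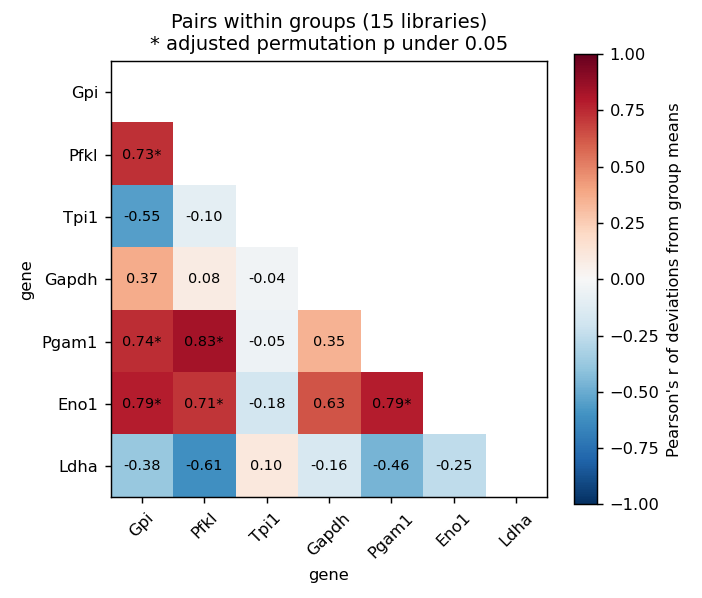
Pearson's r of the within-group deviations of log2(FPKM + 1) for each of the 21 pairs of the 7 enzymes over 15 libraries, as a colour scale from −1 to 1 with the value in each cell. Asterisks mark an adjusted permutation p under 0.05, which are the 6 pairs among Gpi, Pfkl, Pgam1 and Eno1.

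The genes whose deviations from the group means were most like those of each enzyme over the 15 libraries were sought among 10274 named genes, by Pearson's r of log2 values. The closest gene was Eprs for Gpi (r = 0.92), P4ha2 for Pfkl (0.95), Mrpl17 for Tpi1 (0.93), Il17rb for Gapdh (0.85), Mmachc for Pgam1 (0.95), Rab8a for Eno1 (0.91) and Elp4 for Ldha (0.86). No gene was among the 3 closest of more than 1 enzyme, and none of the 7 enzymes was among the 3 closest of another. These are the highest of many values and carry no test.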

How the data were processed

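Liver RNA of 15 Wistar rat libraries in 3 groups of 5 was sequenced. The authors deposited FPKM by Ensembl gene and library. The submitters' processing notes name Trimmomatic, Cufflinks and build Rnor_5.0 without versions, and the aligner and filters are not given in the sources used here. Groups follow the column names that the labels quote. Of 26407 entries, 2 repeated identifiers were dropped, and Alb and Slc27a2 were left out because 999999999 stood in place of values. FPKM hold no counts, so no counting interval can be given.

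Genes averaging at least 1 FPKM (11216 genes) were analysed as log2(FPKM + 1), a scale that understates differences of low genes. A single limma fit (version 3.58.1, R 4.3.3, trended variance) covered the 3 groups. P-values were adjusted by Benjamini-Hochberg over all tested genes of a comparison, and a gene passed under 0.05. The fit was tested on simulated data. Isoenzyme shares were compared by exact permutation tests, and within-group pairs with 100000 permutations, in Python 3.11.15 with scipy 1.17.1. Genes named are the 9 enzymes, listed pathway genes that passed or complete a step, and the gene most like each enzyme. Values of some genes are not reported here. Members and lists were chosen with earlier results of these data known. Alternatives were pseudocounts of 0.1 and 0.5, no filter or 5 FPKM, 3 scalings, 2 other variance models, 2-group fits, a replicate block and each library left out. The second entries of Gapdh and Tpi1, and their sums, were added after seeing the data.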

Additional observations from a re-analysis of the deposited data

How the results depend on the processing

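Gapdh and Eno1 stayed lower and past the threshold in gap-matched against sedentary livers in all 10 fits that left out 1 library and all 11 other alternatives, and Gpi in all but the fit without the second sedentary library. The number of the 7 enzymes that passed ran from 2 to 3 in these leave-one-out fits, and from 0 to 1 between exercised and sedentary livers. There it was 0 after scaling to the same sum and 0 with only the 2 groups fitted.

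Between exercised and gap-matched livers the count of all genes, 101 in the report, was 53 with no filter, 34 after scaling to the same sum, 20 with the replicate block and 16 with only the 2 groups fitted, and ran from 18 to 131 without single libraries. It ran from 342 to 642 between exercised and sedentary and from 147 to 357 between gap-matched and sedentary livers, against 648 and 342 in the report. The count was 201 with the replicate block in gap-matched against sedentary livers. Of the 31 further pathway genes, from 2 to 6 passed between exercised and sedentary, from 3 to 8 between gap-matched and sedentary, and 1 between exercised and gap-matched livers without single libraries. With the replicate block 4 passed in gap-matched against sedentary livers, and with a filter at 5 FPKM 2 passed between exercised and gap-matched livers.

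Libraries with the same number share only that number. The correlations of their deviations ran from −0.267 to 0.187, 2 of 15 were over 0.1, and 1 of 15 libraries correlated best with its own number. The block changed no call of the 7 enzymes.

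Differences near 0 turned sign. Tpi1 between exercised and gap-matched livers was 0.00396 after scaling to the same sum. Without single libraries, Pgam1 ran from −0.095 to 0.041 and Ldha from −0.161 to 0.045 between exercised and sedentary livers, and Ldha from −0.055 to 0.15 between exercised and gap-matched livers. As log2 ratios to the other isoenzymes, the difference was 0.035 for Pfkl and −0.0105 for Ldha between exercised and gap-matched livers. For Pgam1 between gap-matched and sedentary livers, the share differed by 0.0212 percentage points and the log2 ratio by −0.330. Pgam2 averaged 0.040 FPKM and 1 FPKM was added to each side of the ratio, so that ratio mostly followed the level of Pgam1 itself. In percentage points without single libraries, the Pgam1 share ran from −0.0214 to 0.0488 between exercised and sedentary, from −0.0276 to 0.0488 between gap-matched and sedentary, and from −0.0214 to 0.0276 between exercised and gap-matched livers. Between the last 2 groups the Pfkl share ran from −0.799 to 0.449 and the Ldha share from −0.0779 to 0.0610. The causes of the other changes of sign were not tested, and the unknown depth sets no counting error.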

Other observations

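Gapdh is often the denominator in transcript assays, so common reference genes, chosen after their values were seen, are given beside it. Rplp0 and Ywhaz differed from sedentary livers by 0.02 and −0.01 on the log2 scale in exercised and by 0.02 and −0.03 in gap-matched livers, and neither passed. Actb differed by −0.35 in exercised and −0.40 in gap-matched livers and did not pass (limma adjusted p = 0.175 and 0.154).

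Expressed relative to Gapdh, Ldha stood at 5.31 ± 1.59 in exercised, 5.6 ± 0.90 in gap-matched and 3.95 ± 0.73 in sedentary livers (ratio of FPKM, SD, n = 5 each), while its own FPKM did not pass in any comparison. The ratio of Tpi1 to Gapdh was 0.99 ± 0.15 in exercised, 1.15 ± 0.15 in gap-matched and 0.84 ± 0.16 in sedentary livers. In the same order, Gpi stood at 1.65 ± 0.18, 1.32 ± 0.27 and 1.36 ± 0.23. Eno1 stood at 1.71 ± 0.20, 1.43 ± 0.20 and 1.47 ± 0.13. Both fell in FPKM in gap-matched against sedentary livers, as Gapdh did. Pfkl stood at 0.232 ± 0.031, 0.224 ± 0.059 and 0.184 ± 0.027, and Pgam1 at 1.16 ± 0.10, 1.03 ± 0.18 and 0.87 ± 0.11. These ratios were not tested.

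In each of the 3 groups, 0 of the 7 enzymes had a library far enough from the other 4 to exceed Dixon's critical value.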
